A study of Mus musculus with 20 samples.

Results

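Uninjured Myd88KO tracheas were compared with uninjured wild-type tracheas, 5 of each, chosen by the sample titles as 10 of the 20 samples of the study. The wild-type mice were C57/Bl6 and the mutant mice were labelled Myd88 KO. The labels give an age of 4 months for both groups, and no polidocanol was given to either. Whole tracheas freed of excess connective tissue were used, so each value is a mean over epithelium, glands, cartilage, muscle, fat and blood cells. The deletion was present in every cell. The knockout line had been back-crossed for several generations to C57/Bl6JOlaHsd and was kept by knockout matings, whereas the wild-type mice came from a separate colony. The effect of the deletion and that of the line therefore cannot be told apart here. The other 10 samples came from mice of the same lines, 3 days after polidocanol, a detergent that strips the tracheal epithelium. They gave a second set of animals for comparison. They also entered the main fit, and so its estimate of spread, and the choice of probes to test.

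Myd88 is an adaptor protein that couples most Toll-like receptors and the interleukin-1 family of receptors to the Irak kinases and Traf6. This complex activates NF-κB and with it the transcription of cytokines, chemokines and antimicrobial proteins. In the trachea these receptors are carried by epithelial cells and by resident immune cells.

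Each trachea was hybridized to 1 one-colour oligonucleotide array. Signals are given as log2 intensity relative to the 75th percentile of the array, so that 0 is that percentile, and a difference is always Myd88KO minus wild-type on this log2 scale. A probe was called when limma, fitted to all 20 arrays, gave an adjusted p under 0.01. Of 26063 tested probes 100 were called, 0.384% of those tested, and these 100 probes represented 92 genes or unnamed transcripts. Higher signals in Myd88KO tracheas were found for 49 probes (0.188%) and lower signals for 51 probes (0.196%). The 5 Myd88KO and the 5 wild-type arrays did not overlap for any of the 100 called probes, whereas the same was true of 655 (2.51%) of all tested probes. Called differences were large, with a median size of 1.81 and a range of 0.64 to 9.84, and 45 of them were at least 4-fold. The median difference over all tested probes was 0.04.

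The libraries were alike in sex, with Xist high on arrays 1, 4 and 5 and low on arrays 2 and 3 of both groups. The knockout minus wild-type difference of each called probe had the same sign in both kinds of mice. Because the groups did not overlap for any called probe, this sign could not differ, so it is no test of sex. Slide numbers matched replicate numbers. Wild-type array 3 stood apart for several sets of genes. The summed signal of 8 genes of squamous epithelium, as lines the oesophagus, was 1046 times the 75th percentile there and 17.8 to 37.1 on the other 9 arrays. Its sum was also the highest for basal cell genes (538, others 206 to 313) and proliferation genes (23.6, others 4.26 to 11.3). The same held for interleukin-1 family genes (28.7, others 13.6 to 21.8). Without this array 84 probes were called, and without any other single array 73 to 83. Of the 100 called probes, 76 were among the 84. The part of squamous epithelium in the results was not tested further.

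The transcripts with the largest rises had unrelated functions. Mela, a melanoma antigen gene on chromosome 8 (122067110 to 122067169), gave −3.96, −2.88, −1.77, −4.59 and −4.28 on the wild-type arrays and 6.50, 5.69, 5.20, 6.82 and 7.53 on the Myd88KO arrays. The difference of 9.84 (SE 0.59, adjusted p = 2.56e-09) was the largest of all, and the probe was well above background on 4 of 5 wild-type and all 5 Myd88KO arrays. Hal, histidine ammonia-lyase, which starts the breakdown of histidine, was next. Its signal on chromosome 10 (93075295 to 93075354) was −5.47, −6.31, −4.73, −4.58 and −4.77 in wild-type and 1.64, 0.95, 0.82, 0.48 and 1.22 in Myd88KO tracheas, a rise of 6.19 (SE 0.35, adjusted p = 1.56e-09). Among the wild-type arrays it cleared the background limit on 2 of 5, and with normexp the rise was 4.06 (adjusted p = 1.80e-10). All 5 Myd88KO values of Hal lay above the 75th percentile and all 5 wild-type values far below it.

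Itga9, the integrin α9 subunit, had the lowest p of all probes. It gave −1.39, −1.76, −1.67, −1.54 and −1.43 in wild-type and 1.91, 1.44, 1.66, 1.76 and 1.76 in Myd88KO tracheas, a rise of 3.26 (SE 0.13, adjusted p = 1.19e-11) with little spread in either group. Cuedc1, which encodes a ubiquitin-binding CUE domain, rose by 3.15 and 2.03 on its 2 probes (adjusted p = 2.56e-09 and 9.69e-07). The secreted factors Ntn4, a netrin of basement membranes, and Nptx2, a pentraxin of neurons, rose by 1.87 (adjusted p = 7.15e-05) and 1.97 (adjusted p = 0.00122). Among the wild-type arrays Ntn4 cleared the background limit on 1 of 5, and with normexp background correction it differed by 0.62 (adjusted p = 0.165). Zfp704, a zinc finger gene, rose by 2.19 (adjusted p = 1.41e-06).

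Kng1, the precursor of bradykinin, was among the largest rises with a difference of 2.99 (SE 0.56, adjusted p = 0.0091), but its groups nearly touched. The wild-type arrays gave −6.78, −6.57, −7.27, −4.02 and −6.34 and the Myd88KO arrays −3.99, −2.81, −3.39, −2.32 and −3.50, with 1 of 5 wild-type arrays well above background. Leaving out single arrays kept the call in 1 of 10 cases, namely that of wild-type array 4. Fbxw27, an F-box gene, was not well above background on any wild-type array and was at least 3.84-fold higher in Myd88KO tracheas (adjusted p = 1.07e-06). For such a bound, each dim array was given the probe's own signal or the lowest signal well above background, whichever was higher, and the average of these was subtracted from that of the bright arrays.

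The largest falls included 3 members of the tripartite motif family, which are mostly ubiquitin ligases with roles in antiviral defence. Trim12a on chromosome 7 (100356374 to 100356433) gave 1.78, 1.83, 0.86, 1.54 and 1.67 in wild-type and −7.14, −6.99, −6.38, −7.44 and −5.19 in Myd88KO tracheas. None of the 5 Myd88KO values was well above background, and the signal was at least 93.9-fold lower (adjusted p = 0.000254). Trim16 on chromosome 11 (62924392 to 62924451) gave −0.07, −0.18, 0.12, −0.15 and 0.41 against −5.95, −7.33, −6.17, −7.66 and −6.73, at least 33.0-fold lower (adjusted p = 7.41e-11). For Trim30d the fall was at least 5.34-fold (adjusted p = 0.00255). With normexp background correction Trim30d differed by −1.25 and was not called (adjusted p = 0.0777 by limma). It was called in 7 of 10 fits with an array left out.

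Other falls concerned metabolism, the cell cycle and muscle. Pttg1, securin, which restrains the separation of sister chromatids until anaphase, fell from 4.94, 4.78, 4.11, 4.54 and 4.94 to 1.87, 0.84, 0.92, 1.17 and 1.90, a difference of −3.32 (SE 0.33, adjusted p = 6.47e-06). It stayed well above background in both groups. Rprd1b, a regulator of RNA polymerase II, fell from 2.76, 2.39, 2.44, 2.46 and 3.18 to −0.09, −0.33, −0.14, −0.26 and −0.16, a difference of −2.84 (adjusted p = 1.81e-09). Sugct, a mitochondrial glutarate-CoA transferase, fell at least 7.60-fold (adjusted p = 3.02e-07). The fall of a probe of Myom1, a protein of the sarcomere M-band, was at least 7.88-fold (adjusted p = 1.41e-06). Ero1b, an oxidase of the endoplasmic reticulum, fell by 2.85 (adjusted p = 6.03e-06), and the calcium-binding oncomodulin Ocm fell by 2.76 (adjusted p = 0.00547). Ocm was called in 2 of 10 fits with an array left out and missed the call with the slide as a block (adjusted p = 0.0137).

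**Figure D1:**
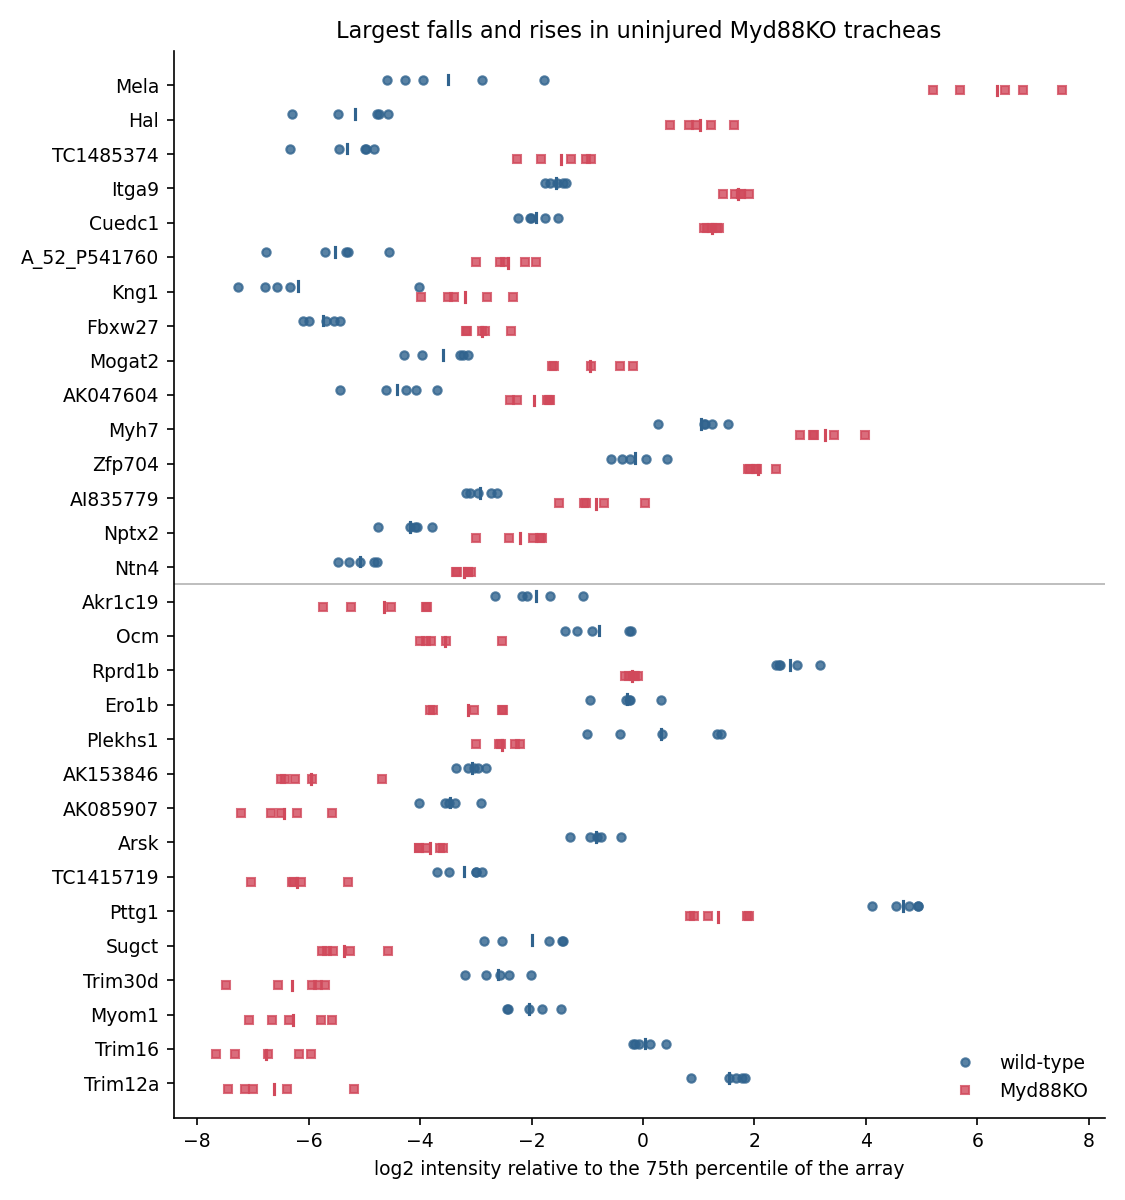
Signal of the 15 largest falls (below the line) and the 15 largest rises (above it) among called genes, 1 circle for each of 5 wild-type and 1 square for each of 5 Myd88KO arrays, with the group means as vertical bars. The horizontal axis is log2 intensity relative to the 75th percentile of the array. The groups do not overlap for any of the 30 genes, and come closest for Kng1.

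Positions are those in the authors' files, whose genome build is not stated. Of 88 genes or transcripts with a position, 50 had another called gene within 2 Mb, and they formed 15 groups, 9 of them with at least 3 genes. This was 56.8% of the called genes, against 13.7% of the other tested genes with a called gene at that distance. Some neighbours lie within 1 locus, such as Acaca and an unnamed transcript between the ends of its called probe. The groups mixed directions: 9 of the 15 held both rises and falls. The chromosomes with the most called probes, namely 2, 5, 7, 9, 10, 11 and 13, carried 73 of them and 43.2% of those tested. They were picked by these counts, so an excess over 43.2% is built in. Chromosome 18 had 4 of 670 probes called, or 0.597%, a larger share than chromosomes 5, 7, 9 and 10. The share of tested probes called was highest on chromosome 13, with 12 of 926 probes, or 1.30%, against 0.384% over all. No probe was called on chromosome 15 or X, of 1063 and 800 tested.

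On chromosome 9 the called probes lay near Myd88. Within 10 Mb of the Myd88 probe 208 other probes were tested and 6 were called, or 2.88%. Between 10 and 20 Mb 0 of 220 were called by limma, 9 having an unadjusted p under 0.05, and further away 1 of 1051 was called, that of Ankk1, named after its value was seen. Itga9 was the nearest called gene at 0.44 Mb. At 4.22 to 4.63 Mb on the other side, 3 neighbours fell together, namely Limd1 (−0.97 and −0.64 on 2 probes), Fyco1, an autophagy adaptor (−2.37), and the transcript 0610042G04Rik (−2.49). The other 5 probes of Fyco1 differed by −0.60 to 0.05 and were not called, and the smaller difference of Limd1 was called in 0 of 10 fits of limma with an array left out, against 10 of 10 for the larger. Myd88 itself was not called, at 2.08 in wild-type and 1.86 in Myd88KO tracheas (difference −0.21, unadjusted p = 0.149 by limma). Its probe was well above background on every array of both groups. A probe outside the deleted part of the gene would not show the deletion, and where this probe lies was not tested. The median difference of the 150 probes within 5 Mb was 0.03, against 0.04 over all tested probes.

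On chromosome 7, between 100356374 and 100526790, 4 called transcripts lay within 0.17 Mb. Trim12a fell on a second probe too, from −2.50, −2.14, −2.66, −2.34 and −2.78 to −4.34, −5.76, −4.87, −5.30 and −4.60 (difference −2.49, adjusted p = 0.000287). Trim34a fell by 2.29 (adjusted p = 0.000787), while its other 2 probes differed by 0.64 and 1.20 (adjusted p = 0.321 and 0.0359). The second probe of Trim30d differed by −1.49 (adjusted p = 0.186). A transcript with the array name TC1485374, read from the opposite strand within Trim12a, rose from −4.83, −6.33, −5.46, −5.0 and −4.97 to −1.02, −2.26, −1.82, −0.93 and −1.30 and was at least 10.3-fold higher (adjusted p = 1.47e-05). Opposite signals were thus measured from the 2 strands at this position. The position also lies between the ends of the Trim34a probe that differed by 1.20 (100306007 to 100391705). Which gene the rising transcript belongs to was not tested. These genes have close paralogues beside them, such as Trim12c, Trim34b and Trim30a, and whether a probe separates the copies was not tested.

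The 250 bases upstream of the starts of the 3 genes that fell are shown because these neighbours fell together (RefSeq, GRCm38.p6, gene strand, 5′ to 3′). Capitals mark the core letters of an interferon response element, GAAA repeated after a gap of any 2 bases, on either strand. Trim12a is chr7:104315496-104315745 on the minus strand, Trim34a is chr7:104244207-104244456 on the plus strand and Trim30d is chr7:104507850-104508099 on the minus strand.
Trim12a: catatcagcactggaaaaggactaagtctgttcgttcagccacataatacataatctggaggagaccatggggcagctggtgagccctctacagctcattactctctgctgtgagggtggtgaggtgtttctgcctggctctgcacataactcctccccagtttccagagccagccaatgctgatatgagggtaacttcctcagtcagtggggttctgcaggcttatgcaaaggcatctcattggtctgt
Trim34a: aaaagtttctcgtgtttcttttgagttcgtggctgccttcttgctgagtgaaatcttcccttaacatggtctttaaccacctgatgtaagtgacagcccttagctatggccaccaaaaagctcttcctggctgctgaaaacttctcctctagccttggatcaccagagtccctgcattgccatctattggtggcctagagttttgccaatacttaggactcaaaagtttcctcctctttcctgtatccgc
Trim30d: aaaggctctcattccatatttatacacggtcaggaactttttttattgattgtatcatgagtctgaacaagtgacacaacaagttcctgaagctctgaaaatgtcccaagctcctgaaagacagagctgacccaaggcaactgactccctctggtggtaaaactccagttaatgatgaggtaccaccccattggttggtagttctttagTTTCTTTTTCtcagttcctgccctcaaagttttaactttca
The motif occurred once in Trim30d, beginning 41 bases before the start, and its letters were not found in the other two windows. Over all 32851 promoter windows of that length 2.98% held it, and of the 53 called genes with a window 1 did. The NF-κB letters GGG and TTCC with any 3 bases between them, on either strand, were in 4.65% of all windows and in that of 1 called gene, Ntn4.

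The longest group was on chromosome 2 (152153987 to 158072838) with 8 called genes. Lbp, lipopolysaccharide-binding protein, rose from 2.33, 2.06, 1.88, 2.25 and 2.23 to 3.17, 3.78, 3.96, 3.67 and 3.01, a difference of 1.36 (adjusted p = 0.00326) that was called in 5 of 10 fits with an array left out. The translation factor Eif2s2 rose by 1.25 (adjusted p = 0.00101), whereas Rprd1b, the microtubule protein Mapre1 (−0.67, adjusted p = 0.00724, called in 1 of 10 such fits) and Zcchc3 (−1.08, adjusted p = 0.000617) fell. A second group on chromosome 2 (131993010 to 134338529) held Cds2, which makes CDP-diacylglycerol, with a rise of 1.72, Tmx4, a thioredoxin-like membrane protein, with a rise of 1.62, and Trmt6, a tRNA methyltransferase subunit, with a fall of 1.47.

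On chromosome 10 (93075295 to 93700851) Hal and Ntn4 had 2 called neighbours. These were Fgd6, with a rise of 1.16 (adjusted p = 0.0059), and the junction protein Vezt, with a fall of 1.77 (adjusted p = 0.00452). With normexp Vezt differed by −0.65 and was not called (adjusted p = 0.136 by limma). On chromosome 11 (86637007 to 88837697) Cuedc1 lay with δ-tubulin Tubd1 (−1.38, adjusted p = 0.000403), the phosphodiesterase Gdpd1 (−1.67, adjusted p = 6.49e-05) and an unnamed transcript (−2.99, adjusted p = 1.33e-06). On chromosome 5 (141936471 to 144218504) Ocm and Nptx2 lay with β-actin Actb (−0.73, adjusted p = 0.00602), a gene often used for normalization. On chromosome 13 (20547550 to 23068460) Trim27 (1.62, adjusted p = 0.00108) and histone H4c9 (1.38, adjusted p = 0.00254) rose and Hfe, a regulator of iron uptake, fell (−0.95, adjusted p = 0.000617). Histone H4 genes are near-identical, so that the copy is uncertain.

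**Figure D2:**
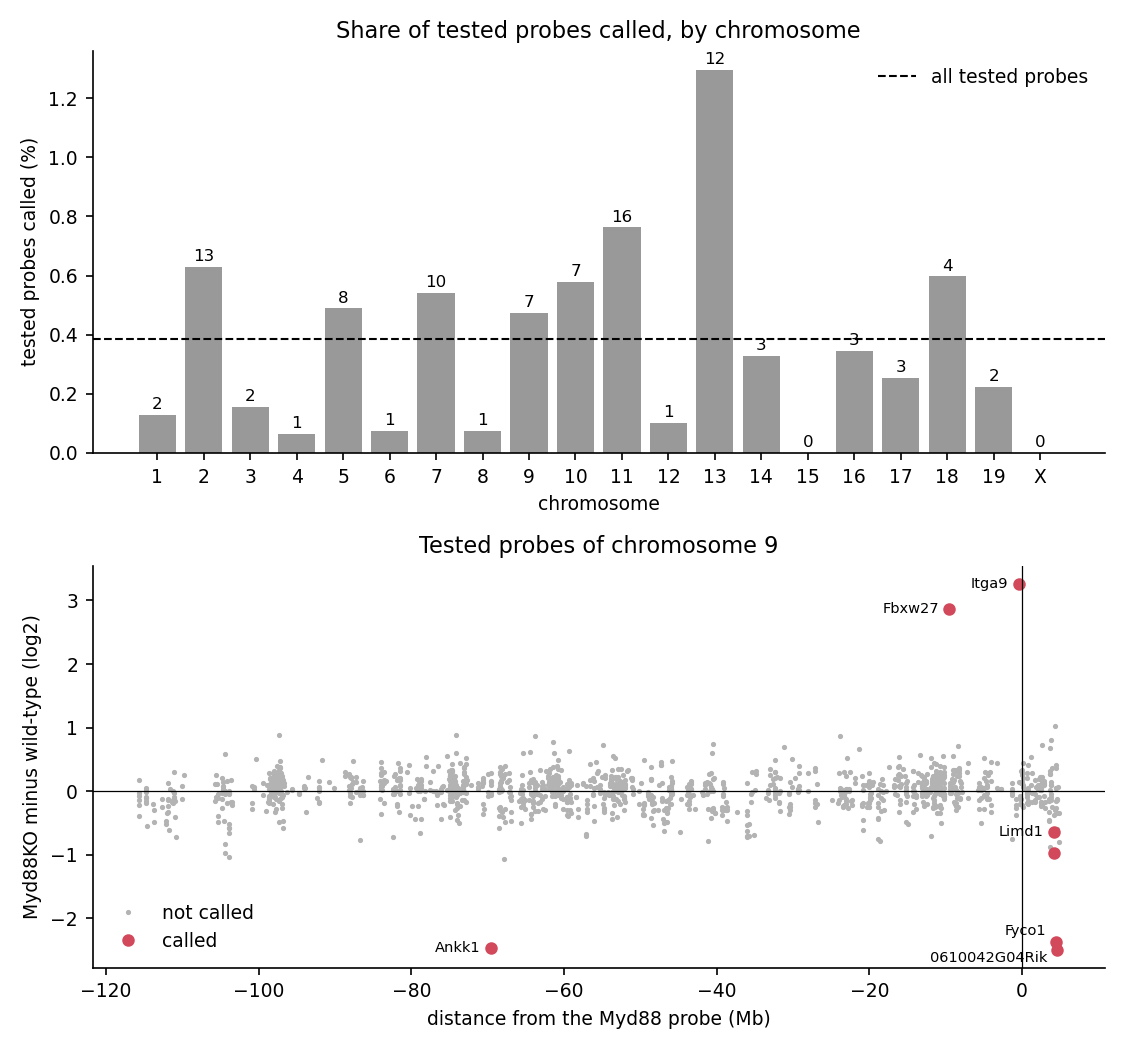
Upper panel, share of tested probes called on each chromosome in percent, with the number called above each bar and the share over all tested probes (0.384%) as a broken line. Lower panel, Myd88KO minus wild-type difference (log2) of every tested probe of chromosome 9 against its distance from the Myd88 probe in Mb, where 6 of the 7 called probes lie within 10 Mb.

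Probes of the same gene often disagreed. Of the 92 called genes 46 had several tested probes. In 41 of these another probe was not called or differed the other way, in 18 another probe had the opposite sign, and in 5 all probes were called with 1 sign. The 64 probes of these genes that were not called had a median difference of 0.23 in size, and 44 of them had an unadjusted p above 0.05. The 54 called probes of the same genes had a median size of 1.73.

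Pold3, a subunit of DNA polymerase δ, was the sharpest case. A probe from 96129680 to 96129739 on chromosome 7 fell from −0.09, −0.32, −0.65, −0.31 and −0.37 to −1.71, −2.28, −2.14, −2.17 and −1.85 (adjusted p = 0.000978). Another, from 96129681 to 96129740 on the same strand, rose from −2.07, −2.74, −2.75, −2.56 and −2.64 to −0.69, −1.23, −1.05, −1.0 and −0.88 (adjusted p = 4.13e-05). All 20 values were well above background, and the other Pold3 probe differed by 0.02. The positions in the files thus place 2 nearly coincident probes with opposite differences, and whether the positions are right was not tested.

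Arsk, arylsulfatase K of lysosomes, fell by 2.98 on 1 probe (adjusted p = 2.23e-07) and rose by 2.05 on another nearby (adjusted p = 6.03e-06). Itga9 had a second probe with 1.03 in wild-type and 1.17 in Myd88KO tracheas, a difference of 0.14. The second probe of Rprd1b differed by −0.12, that of Zfp704 by 0.12, that of Ero1b by 0.44, and the other 2 probes of Myom1 by −0.17 and −0.05. None of these was called. In contrast, all 3 tested probes of Trim16 were lower (−6.80, −1.61 and −0.74, the latter 2 with adjusted p = 0.0156 and 0.0504). Both probes of Cuedc1 and both of Limd1 were called in 1 direction.

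**Figure D3:**
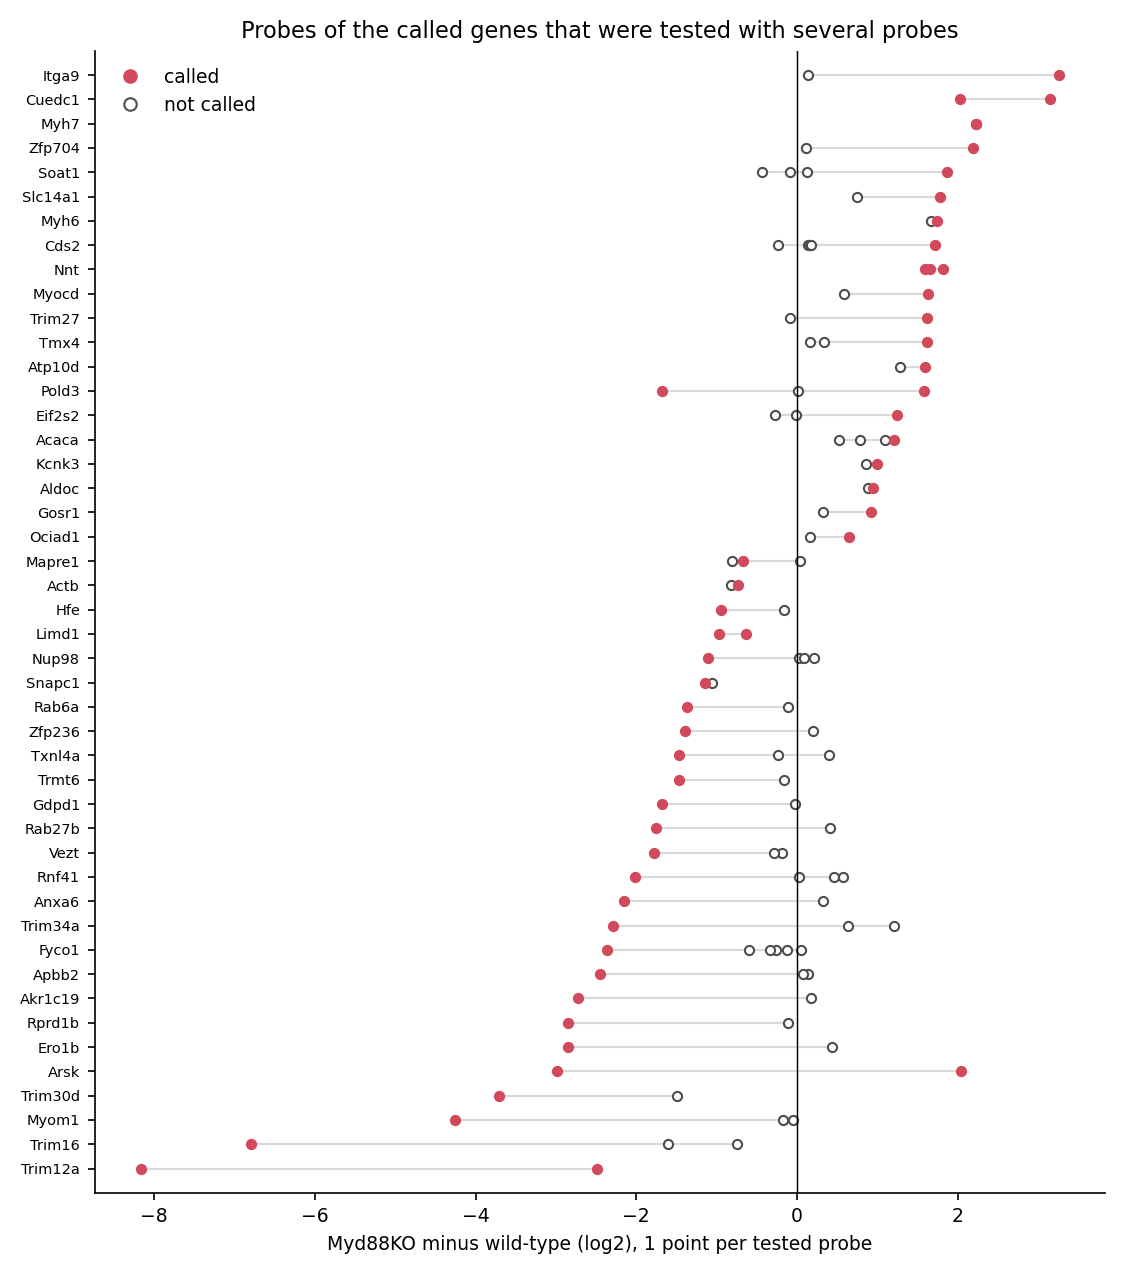
Myd88KO minus wild-type difference (log2) of every tested probe of the 46 called genes with several tested probes, filled where called and open where not. A line joins the probes of a gene. Most open points lie near 0 while the called probe lies far from it, and Pold3 and Arsk have called probes on both sides of 0.

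The lists described from here on were chosen with earlier results of these data known. In the 6 pathway lists 88 probes of 61 genes were tested and 2 were called, both higher, or 2.27% against 0.384% of all tested probes. Among Toll-like receptors and their co-receptors (11 genes, 12 probes, median difference 0.01) Lbp was called, whereas Tlr1 differed by −0.02 and Tlr2, the receptor of bacterial lipoproteins, by 0.36. Among adaptors and kinases of the Myd88 complex none of 24 probes was called and none had an unadjusted p under 0.05. Tirap differed by 0.07 on both probes, Ticam1 by 0.15 and 0.14, and Tab1, the member of lowest p, by 0.25 (adjusted p = 1.00). None of 18 probes of NF-κB subunits and IκB kinases was called or had an unadjusted p under 0.05 (median −0.02). Over all tested probes 5.59% had such a p.

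Among genes that NF-κB induces none of 13 probes was called by limma, 3 had an unadjusted p under 0.05 and all 3 were lower, and the median difference was −0.27, with a range of −2.54 to 0.30. The median of the 4 neutrophil probes was −2.15, and its part in these values was not tested. Tnf, tumour necrosis factor, gave −2.44, −2.41, −0.72, −2.47 and −1.74 in wild-type and −4.11, −4.17, −3.78, −3.57 and −3.87 in Myd88KO tracheas. Its difference was −1.95 (adjusted p = 0.14), and the groups did not overlap. The neutrophil chemokine Cxcl5 differed by −2.54 (adjusted p = 0.163), also without overlap, and Cxcl1 by −0.29. In the interleukin-1 family 0 of 15 probes were called and 2 had an unadjusted p under 0.05. Il1a, a ligand released by damaged cells, had the lowest p with a difference of −2.54 (adjusted p = 0.195), and the receptor Il1r1 differed by 0.06.

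Edar, the ectodysplasin receptor of hair and gland development, was called with a rise of 0.78. It gave −2.68, −2.72, −2.53, −2.57 and −2.95 in wild-type and −1.98, −1.93, −1.54, −2.03 and −2.08 in Myd88KO tracheas (SE 0.14, adjusted p = 0.00901). The call was lost in all 10 fits with an array left out. Its ligand Eda differed by −0.07, and no other probe of the 6 in this pathway list was called. Interferon-stimulated genes (14 genes, 23 probes) had no call by limma, a median of 0.34 and an unadjusted p under 0.05 for 2 probes, both higher. Ifit1 differed by 0.15 and Ifit3, the member of lowest p, by 0.85 (adjusted p = 0.71).

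A list of 16 genes of fatty acid, acylglycerol and sterol ester metabolism was tested with 34 probes. It was chosen with earlier results of these data known, so its counts are a description and no separate support. In it 5 of the 34 probes, from 5 genes, were called, all higher, where 0.384% of all tested probes were called. An unadjusted p under 0.05 was found for 19 probes of 12 genes, all higher, where 3.82% of all tested probes were higher at that p. The median difference was 0.66, against 0.04 over all probes. The summed signal of the list was 161 to 377 times the 75th percentile in wild-type and 561 to 818 times in Myd88KO tracheas, without overlap.

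Mogat2, which joins a fatty acid to monoacylglycerol, rose from −3.14, −4.29, −3.28, −3.22 and −3.97 to −0.17, −0.94, −0.41, −1.60 and −1.64, a difference of 2.63 (SE 0.36, adjusted p = 0.000254). It was called whichever array was left out. Its relative Mogat1 differed by 0.06 to 0.16 on 3 probes and was not called. Acly, which makes acetyl-CoA from citrate for lipid synthesis, gave 1.62, 0.90, 1.58, 1.83 and 0.95 in wild-type and 2.80, 2.64, 2.69, 2.53 and 2.28 in Myd88KO tracheas (1.21, adjusted p = 0.00465). Acaca, the acetyl-CoA carboxylase of the next step, rose by 1.21 on 1 of 4 probes (adjusted p = 0.00547), and its other 3 probes differed by 0.53 to 1.1. With normexp the called Acaca probe differed by 0.54 and was not called (adjusted p = 0.286 by limma). The thioesterase Acot11 rose by 1.06 (adjusted p = 0.00253).

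Soat1, which esterifies cholesterol, rose by 1.87 on 1 probe (adjusted p = 0.00446), while its other 3 differed by −0.43 to 0.13. Fatty acid synthase Fasn differed by 1.19 (adjusted p = 0.233) and, on a probe left out on 3 of 5 wild-type arrays as an outlier, by 0.94 (adjusted p = 0.316). Glycerol-3-phosphate dehydrogenase Gpd1 differed by 1.11 and 0.55, and the desaturase Scd1 by 1.08 (adjusted p = 0.456). Of the 5 called lipid probes, 3 were called with the slide as a block, with the uninjured arrays fitted alone or with normexp background correction, and 1 to 4 with an array left out. Only 1 was called without Myd88KO array 3 or 4 or wild-type array 2.

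White adipocyte genes (8 genes, 13 probes) had no call by limma, a median of 0.52 and 3 probes higher at an unadjusted p under 0.05. Their summed signal was 392 to 707 in wild-type and 642 to 1136 in Myd88KO tracheas, with overlap. Adipoq, adiponectin, differed by 0.54, and Lipe, hormone-sensitive lipase, had the lowest p (0.82, adjusted p = 0.176). Of 7 brown adipocyte probes none was called, 3 were higher at that p and the median was 0.04. Their summed signal was 107 to 266 in wild-type and 193 to 336 in Myd88KO tracheas, with overlap. Ucp1, the uncoupling protein of brown fat, gave 1.50, 2.37, 0.66, 3.09 and 2.30 in wild-type and 3.95, 4.50, 4.18, 5.06 and 4.34 in Myd88KO tracheas (2.42, adjusted p = 0.199). Elovl3 differed by 2.61 (adjusted p = 0.121) and Cidea by 1.54 (adjusted p = 0.233), and all 3 were without overlap. The other 4 probes, of Cox7a1, Ppargc1a and Dio2, differed by −0.62 to 0.04. The part of adipose tissue in the lipid genes was not tested. In whole tissue, more cells of a type and more RNA per cell cannot be told apart.

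Over the 25 cell type lists 259 probes of 177 genes were tested and 5 probes were called, all higher, or 1.93% against 0.384% of all tested probes. Tracheal markers were strong on all 10 arrays, with the club cell genes Scgb1a1 at 7.30 in wild-type and 7.96 in Myd88KO tracheas and Scgb3a1 at 8.91 and 9.09. None of the 10 club and secretory probes was called or had an unadjusted p under 0.05 (median 0.03). The same held for 12 basal cell probes (median 0.03) and 13 ciliated cell probes (median −0.19). Mucous cell genes (5 of 8 tested) had no call by limma, a median of 0.55 and 3 probes with an unadjusted p under 0.05, all higher. Agr2, which folds mucins, differed by 0.55 (adjusted p = 0.529), Muc5b, the main gland mucin, by 0.42, and Muc5ac was not found on the array under that name. Gland genes (8 genes, 14 probes) had no call and a median of 0.16.

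The muscle lists held 4 of the 5 cell type calls, namely those of Myh7 on overlapping probes, Myh6 and the coactivator Myocd. Myh7, the slow and cardiac β-myosin heavy chain, gave 1.09, 1.12, 0.26, 1.53 and 1.23 in wild-type and 3.43, 2.81, 3.07, 3.05 and 3.99 in Myd88KO tracheas (2.22, SE 0.26, adjusted p = 3.75e-05), and an overlapping probe gave the same difference (adjusted p = 8.18e-05). Its neighbour Myh6, the α-chain, rose from −4.75, −3.81, −3.97, −3.67 and −4.65 to −2.73, −2.21, −2.37, −2.53 and −2.31 (1.74, adjusted p = 0.000757), and its second probe differed by 1.67 (adjusted p = 0.015). Slow troponin C, Tnnc1, differed by 1.47 (adjusted p = 0.0121). The other heart and slow muscle genes did not share this, with Myl3 at −0.11 and −0.01 and Myl7 at −1.07 (adjusted p = 0.651), and the median of the 14 probes was 0.13. Skeletal muscle had no call in 18 probes (median 0.08).

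Myocd, the coactivator of smooth muscle genes, rose from −0.78, −1.43, −1.48, −0.89 and −0.88 to 0.18, 0.85, 0.70, 0.31 and 0.65 (1.63, adjusted p = 4.13e-05), and its second probe differed by 0.59. The genes it is known to drive were not called, with Myh11 at 0.34 and Acta2 at −0.04 to 0.28 on 4 probes. The summed signal of the smooth muscle list was 297 to 338 in wild-type and 368 to 442 in Myd88KO tracheas, without overlap.

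Among immune cells Ctsw, cathepsin W of cytotoxic lymphocytes, was the only call of the lists, with a rise of 0.83 (adjusted p = 0.00424) that held in 3 of 10 fits with an array left out. With normexp Ctsw differed by 0.40 and was not called (adjusted p = 0.392 by limma). The T and NK cell list had 4 of 9 probes higher at an unadjusted p under 0.05 and a median of 0.60, with Cd3e at −0.02 and Cd3g at 0.60. The 4 tested neutrophil probes had a median of −2.15 and no call by limma, 3 of them with an unadjusted p under 0.05. S100a9, a calcium-binding protein of neutrophils, gave 4.93, 1.97, 2.95, 1.55 and 1.14 in wild-type and 1.05, −0.47, −1.72, −1.26 and −0.91 in Myd88KO tracheas (−3.17, adjusted p = 0.492). The summed neutrophil signal of wild-type array 1 was 33.1, against 2.49 to 8.09 on the other wild-type and 0.35 to 2.31 on the Myd88KO arrays. Jchain, the joining chain of secreted IgA and IgM, differed by −3.55 and −3.57 on 2 probes (adjusted p = 0.0749 and 0.0865). Its wild-type arrays were themselves far apart, at 1.73, −0.34, −2.60, 2.45 and −2.34 on the former probe. Macrophage, mast cell, endothelial, fibroblast, Schwann cell and red blood cell lists had no call and medians of −0.09 to 0.17.

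**Figure D4:**
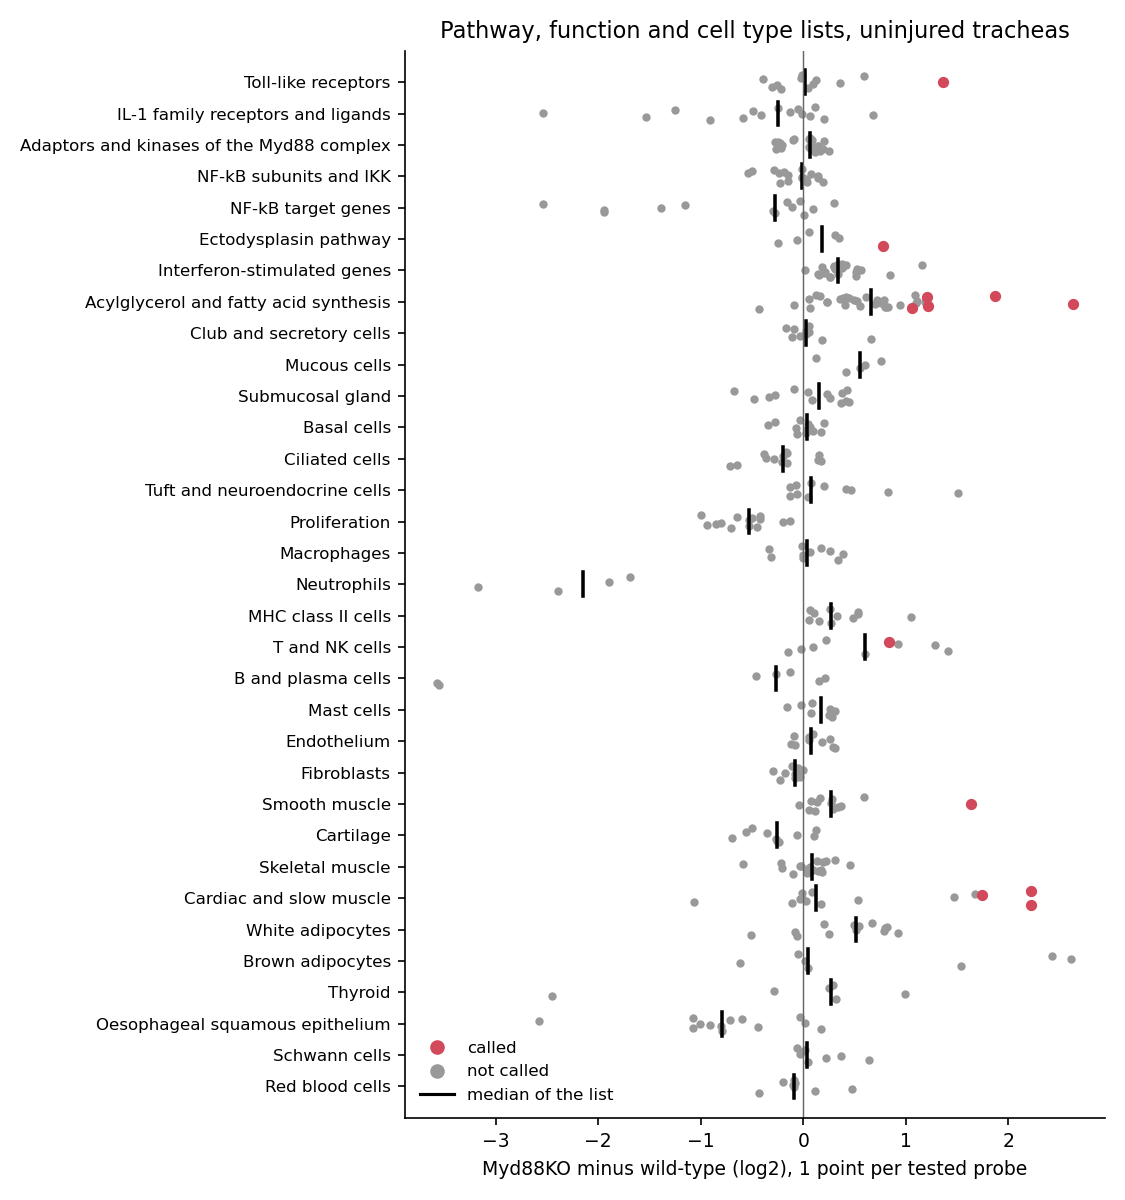
Myd88KO minus wild-type difference (log2) of each tested probe of the pathway, function and cell type lists in uninjured tracheas, with called probes in red and the median of each list as a black bar. Calls are confined to 6 lists, and 5 of the 12 red points belong to the list labelled acylglycerol and fatty acid synthesis.

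Markers that separate C57/Bl6 substrains were read as a check of the lines. Nnt, the mitochondrial transhydrogenase that is mutated in C57BL/6J mice, was higher in Myd88KO tracheas on all 3 tested probes (1.60 to 1.82, adjusted p = 0.0041 to 1.61e-05). On 1 of them it gave −1.35, −1.19, −1.49, −1.09 and −1.40 in wild-type and 0.34, 0.44, 0.21, 0.42 and 0.33 in Myd88KO tracheas. Mmrn1, multimerin 1, which is deleted in C57BL/6JOlaHsd mice, was well above background on all 10 arrays on 1 of 2 probes, at 0.18 in wild-type and −0.14 in Myd88KO tracheas (adjusted p = 1.00). Its other probe did not reach that level on any of them. The signal of the former goes against the substrain that the study names for its wild-type mice, and the cause was not tested.

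The same lines were compared in the other mice, 3 days after injury, with limma on those 10 arrays alone. There 38 of 26063 probes were called (0.146%), and 37 of the 38 were among the 100, each with the same sign. The injured arrays had also entered the fit and the probe filter behind the 100. With the uninjured arrays fitted alone, 79 of the 100 were called. The injured groups did not overlap for 77 of the 100 probes and for 1.96% of all tested probes, and 99 of the 100 kept their sign. The exception was Trim27, with 1.62 in uninjured and −0.32 in injured tracheas (unadjusted p = 0.261 in the injured). Called in both were Mela (9.84 uninjured, 9.27 injured), Hal (6.19, 6.07), Trim16 (−6.80, −6.62), Itga9 (3.26, 2.87), Rprd1b (−2.84, −3.13) and both probes of Myh7 (2.22, 2.04 and 1.97 in the injured). Of the 56 called probes in groups of neighbouring genes 24 were called again, and of the other 44 probes 13 were.

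The lipid genes were not among these. Mogat2 differed by 0.18 in injured tracheas, Acot11 by 0.33, Acly by 0.40, Acaca by 0.71 and Soat1 by 0.77, with adjusted p = 0.388 to 0.905 there. The median of the 34 lipid probes was 0.22 in injured tracheas. The difference between the uninjured and injured contrasts passed the test for 0 of the 26063 probes (smallest adjusted p = 0.179 by limma, 2703 with an unadjusted p under 0.05), so these contrasts are not shown to differ. Edar (0.47), Ctsw (0.52), Kng1 (0.62) and Pttg1 (−1.23) also missed the call in injured tracheas, and so did 1 probe of Trim12a (−6.97, adjusted p = 0.115). Injured Myd88KO array 1 stood apart for several called probes, on chromosome 7 and elsewhere. For that Trim12a probe it was at 1.01 against −7.36 to −6.10 on the other 4 and 0.81 to 2.42 on the injured wild-type arrays. Without it the difference was −8.58 (adjusted p = 9.77e-06), and 42 of the 100 probes were called in injured tracheas. The same array gave −3.30 for the second Trim12a probe (others −5.40 to −4.91), −3.18 for Trim30d (others −7.52 to −4.70), −0.04 for the falling Pold3 probe (others −2.03 to −1.52) and −1.28 for Mogat2 (others −2.93 to −2.63). Away from chromosome 7 it gave −0.90 for Ocm (others −4.39 to −2.58), −2.50 for Soat1 (others −1.20 to −0.41) and 2.27 for Lbp (others 3.06 to 3.59). The cause was not tested.

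**Figure D5:**
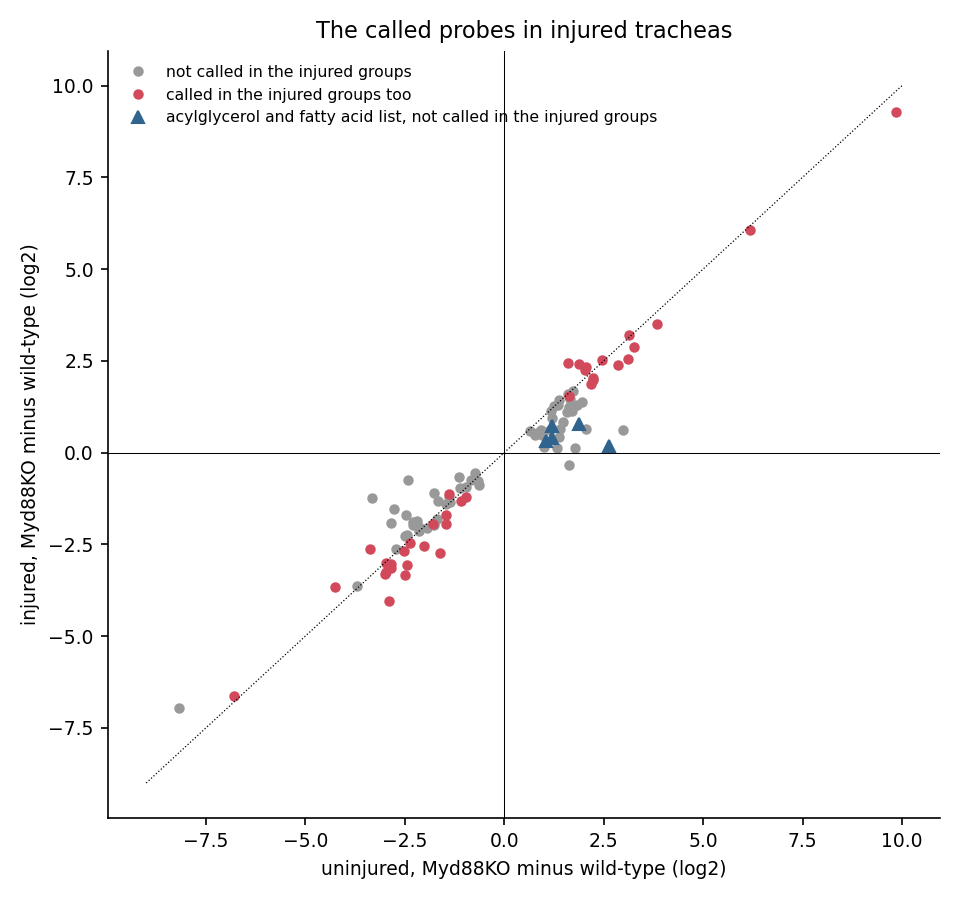
Difference between Myd88KO and wild-type (log2) in uninjured tracheas (horizontal) and in injured tracheas (vertical) for the 100 probes called in uninjured tracheas, with the line of equal values dotted. Probes called again in the injured groups are red, the 5 called probes of the acylglycerol and fatty acid list are blue triangles, and others are grey. All points but that of Trim27 lie in the lower left or upper right quadrant, and the blue triangles lie below the dotted line.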

How the data were processed

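RNA of 20 whole mouse tracheas, 5 in each of 4 groups, had been hybridized to one-colour Agilent arrays. The authors deposited the intensity of each spot after background subtraction by Feature Extraction 9.5.1.1, not scaled between arrays, and per the file headers spots not above background hold a surrogate value. A deposited value table holds the same intensity rounded. The number of columns of other samples was 0. Outlier spots were left out (920 values on the uninjured arrays), spots of a probe averaged to 41174 probes, and log2 intensity taken relative to the 75th percentile of the probes of each array. A probe was tested if well above background on at least 10 of 20 arrays (26063 probes). The share of spots well above background was 59.1% to 67.8% on the uninjured arrays, and 5 arrays a group limit the precision. Within-group correlations were 0.952 to 0.986 in wild-type and 0.968 to 0.990 in Myd88KO arrays.

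All 20 arrays were fitted with limma 3.58.1 in R 4.3.3 and adjusted by the Benjamini-Hochberg method over all tested probes. The fit was tested on simulated data. Same-numbered arrays share a slide and deviated together (correlation 0.252 to 0.476 over the 5 numbers), so the numbers pair the samples. Mice of a group are separate animals, as the study describes biological replicates. Probes were named by accession (23082), symbol (6582) or older symbol (3073) through GRCm38.p6 gene names, or by the name on the array (8437).

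Named genes were the 15 largest rises and falls without overlap, called genes of position groups with at least 3 genes, called list members, Myd88, strain and sex markers, genes with discordant probes, and of each list described the first 2 members and that of lowest p. The members and the 35 gene lists were chosen with earlier results of these data known. Alternatives were background correction (normexp), median or quantile scaling, the deposited table, filters, outlier spots, uninjured arrays alone, slide, scan day or Xist as a term, array weights, the one-way test of the study's methods, another threshold and leaving out arrays.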

Additional observations from a re-analysis of the deposited data

Results flagged for a closer look

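A single array stood far from the other 4 of its group for 6 of 144 groups of 5 examined over 72 probes, where chance alone flags about 1 in 20. Wild-type array 4 was low for Rab6a at 0.21 (others 0.45 to 0.55) and high for Kng1 at −4.02 (others −7.27 to −6.34). Wild-type array 1 was high for the rising probe of Pold3 at −2.07 (others −2.75 to −2.56), and wild-type array 3 was high for Fgd6 at 0.63 (others −0.78 to −0.44). Myd88KO array 3 was low for Vezt at −5.85 (others −5.02 to −4.72) and high for Edar at −1.54 (others −2.08 to −1.93).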

How the results depend on the processing

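Differences of the 72 named probes kept their sign in every alternative run. For called probes, whose groups did not overlap, leaving out arrays could not change the sign. Of the 72 probes, 40 were no longer called with the methods' one-way test after adjustment, and 19 with normexp. Array weights gave 180 calls (88 higher, 92 lower), 105 genes with a called neighbour, 9 cell type calls and 65 genes with discordant probes. Normexp background correction gave 76 calls, with 27 genes with a called neighbour, 3 cell type calls, 4 pathway and function calls and 21 probes called again after injury. The methods' one-way test gave 46 calls after Benjamini-Hochberg adjustment (20 higher, 26 lower), 22 genes with a called neighbour, 23 with discordant probes and 0 cell type and 0 pathway and function calls. At an unadjusted p under 0.01 it gave 743 (526 higher, 217 lower), 536, 284, 20 and 18, and 11 within 10 Mb of Myd88. At an adjusted p under 0.05 limma called 79 probes higher, and 78 genes had a called neighbour.

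With the replicate block (slide), 101 probes were called, 88 of them among the 100 (the 12 missing included Kng1, Edar, Ocm, Fgd6, Acly, Soat1, Ankk1 and the smaller difference of Limd1), and pathway and function calls fell from 7 to 4, as they did with the uninjured arrays alone. Leaving out single arrays gave 73 to 84 calls and 1 to 5 pathway and function calls. Leaving out single injured arrays gave 22 to 42 probes called again, fewest without Myd88KO array 3 (22), wild-type arrays 2 and 3 (23 each) and Myd88KO arrays 2 and 4 (24 each). The causes were not tested. The number of arrays limits the precision, and 11 called probes were well above background on no Myd88KO and 4 on no wild-type array.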

Other observations

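Nnt differed between animals of the injured Myd88KO group. Its probe with the highest signal gave 1.89 on injured Myd88KO array 1 and 2.65, 2.42, 2.09 and 3.36 on arrays 2 to 5, and another probe gave −0.81 on array 1 and 0.26, 0.08, −0.11 and 0.47 on the others. On the injured wild-type arrays these probes gave 0.93 to 1.57 and −1.64 to −1.29. Xist was high on arrays 1 to 4 of the injured Myd88KO group and low on array 5, whereas in the injured wild-type group it was low on arrays 2 and 3, so that the sexes were not matched by number there.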
